A study of Drosophila melanogaster with 9 samples.

Results

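The long terminal repeat (LTR) retrotransposon insertions of the major chromosome arms were all sites of the order LTR that the deposited list of transposable element (TE) insertions places on arms X, 2L, 2R, 3L or 3R. They numbered 883 of 2474 sites of all orders on these arms, and the whole list held 4084 sites. The remaining sites on the arms were 676 of non-LTR elements, 832 of DNA elements with terminal inverted repeats (TIR) and 83 of Foldback elements. The sites were called in genomic DNA of Drosophila melanogaster double-GKD females, in which RNAi against both Piwi and HP1a is driven in the germline (germline knockdown, GKD). These flies carried heterozygous UAS-Dcr-2 and w[1118], UAS-Piwi-RNAi opposite the GAL4-nos.NGT driver, and heterozygous UAS-HP1a-RNAi. Whole females of 2 to 4 days were pooled for 1 library, so a frequency is that of the pool. Each female had 1 chromosome set from the RNAi line and 1 from the driver stock. A site carried by only 1 of these parents would lie below 1 without being rare in that parent, and the parent of a site was not analysed. Ovarian RNA of the same genotype and of 3 sister genotypes was sequenced in 2 libraries each, from females aged 0 to 1 day. Piwi-GKD females had a TM3 balancer in place of the HP1a-RNAi chromosome, HP1a-GKD females had the Cy balancer in place of the Piwi-RNAi chromosome, and Ctrl females had both balancers and no RNAi construct. All 4 genotypes shared UAS-Dcr-2 and the nos-driven GAL4, and were siblings of 1 cross kept at 18 °C. The driver uses the nanos promoter, and the knockdowns are therefore those of germ cells in whole ovaries that also hold somatic cells.

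LTR retrotransposons copy themselves through an RNA intermediate that is reverse transcribed and integrated elsewhere in the genome, and each intact copy is flanked by a pair of direct terminal repeats. In Drosophila they fall into the Bel-Pao, Copia and Gypsy superfamilies. Some Gypsy families, the errantiviruses, also carry a gene that resembles a viral envelope gene and are known from the somatic follicle cells that surround the germline. In the ovary, TE transcripts are recognised by piRNAs bound to Piwi, which directs methylation of histone H3 at the target, and HP1a is the chromatin protein that binds this mark.

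Every site in the list has a frequency, which is the share of the physical coverage by read pairs that supported the insertion. The same list gives the supporting and the total coverage. Over all orders, their ratio equalled the frequency within 0.0011 at all 1524 sites with forward support alone, all 1515 with reverse support alone and 432 of the 1045 with support on both sides. The coverage was low. The median total at an LTR site was 4.89, 463 sites (52.4%) were under 5, and no site had a supporting coverage below 2. A site with a total near 2 could therefore enter the list only at a frequency near 1, and a rare insertion could enter only where coverage was high. Only 1 DNA library was sequenced, so the Wilson 95% intervals of shares, the Newcombe intervals of differences and the intervals of medians cover the counting of sites, and no test between orders or arms was made.

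LTR sites made up 35.7% of the sites on the 5 arms (95% interval 33.8 to 37.6%). They belonged to 59 families, and the family sizes were uneven. roo, a Bel-Pao element, alone held 204 sites or 23.1% of all LTR sites, the 5 most frequent families held 41.9% and the 10 most frequent 57.2%. At the other end, 13 families had 1 to 3 sites. By the superfamily lists used here, 286 sites of 7 families were Bel-Pao (32.4%) and 35 sites of 4 families were Copia (3.96%). Those lists counted 135 sites of 10 families as errantiviruses (15.3%), and put 399 sites of 33 families in the rest of the Gypsy superfamily (45.2%). That rest took in opus (31 sites) and gypsy5 (1), and whether its families lack an envelope-like gene was not checked. A further 28 sites of 5 families (HMS-Beagle2, GATE, Tom1, accord2 and Osvaldo) were not assigned to a superfamily. The orientation was even, with 439 sites on the plus strand and 444 on the minus strand.

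**Figure D1:**
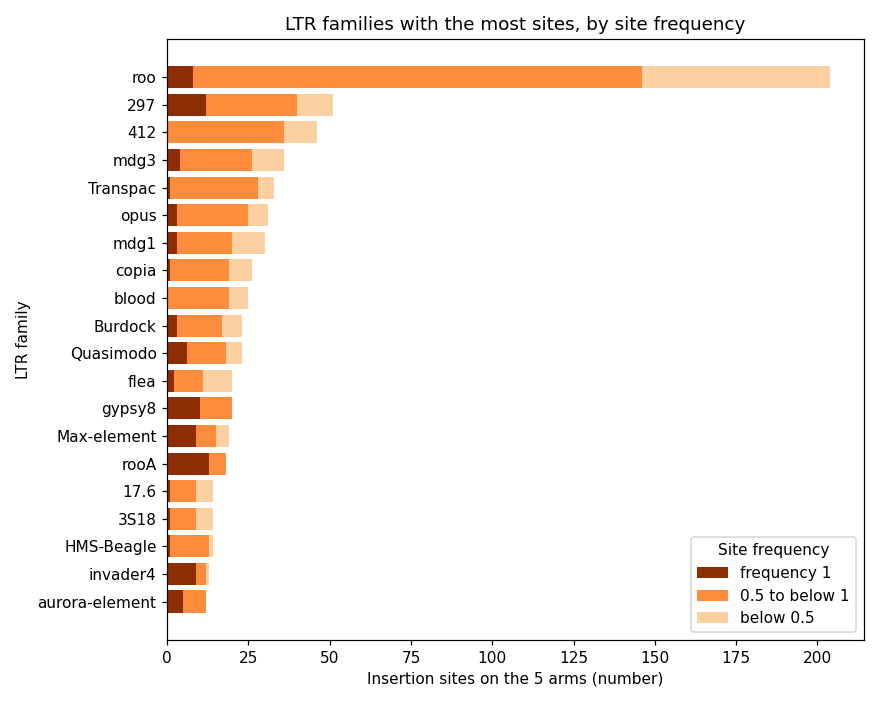
Number of insertion sites on the 5 arms (horizontal axis) for the 20 LTR families with the most sites, divided by the frequency of the site (1, from 0.5 to below 1, and below 0.5). roo has 204 sites of which 8 are at a frequency of 1, whereas 13 of the 18 rooA sites are.

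After roo, the largest families were 297 (51 sites), 412 (46), mdg3 (36), Transpac (33), opus (31), mdg1 (30), copia (26), blood (25), Burdock (23) and Quasimodo (23). Among them, 297 and Quasimodo are errantiviruses, copia is the element after which its superfamily is named, and the other families except roo are Gypsy elements in the list used here. Several other families had fewer sites. HMS-Beagle and 3S18 had 14 each, aurora-element 12, gypsy7 4, 1731 3 and frogger 1. A total of 18 families had sites on all 5 arms, and roo was the most frequent family on each arm, with 47 sites on X, 34 on 2L, 38 on 2R, 37 on 3L and 48 on 3R. The next families differed by arm. 297 had 16 of its 51 sites on X, opus had 14 of its 31 there, copia had 14 of its 26 on 2L, and mdg3 had 14 of its 36 on 2R, whereas blood had 1 site on X and 10 on 3L. Transpac was found on the plus strand at 24 of 33 sites.

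The frequency of LTR sites had a median of 0.685 (95% interval 0.660 to 0.715) and ran from 0.225 to 1. A total of 165 sites (18.7%) were at 1, 201 were under 0.5, and 252 (28.5%) lay from 0.4 to 0.6. Non-LTR and TIR sites had higher frequencies, with medians of 0.794 and 0.808. The 83 Foldback sites had a median of 0.743, whose interval (0.650 to 0.832) overlapped that of LTR sites, and 18.1% of them (11.3 to 27.7%) were at 1. The share at a frequency of 1 was 18.7% of LTR sites against 31.4% of non-LTR sites, a difference of -12.7 percentage points (-17.0 to -8.34). Against the 30.0% of TIR sites the difference was -11.4 points (-15.4 to -7.31). Read pairs on both sides supported 280 LTR sites (31.7%), 297 had forward support alone and 306 reverse support alone. A frequency of 1 was given to 10.4% of sites with both, 25.3% of sites with forward and 19.9% of sites with reverse support.

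**Figure D2:**
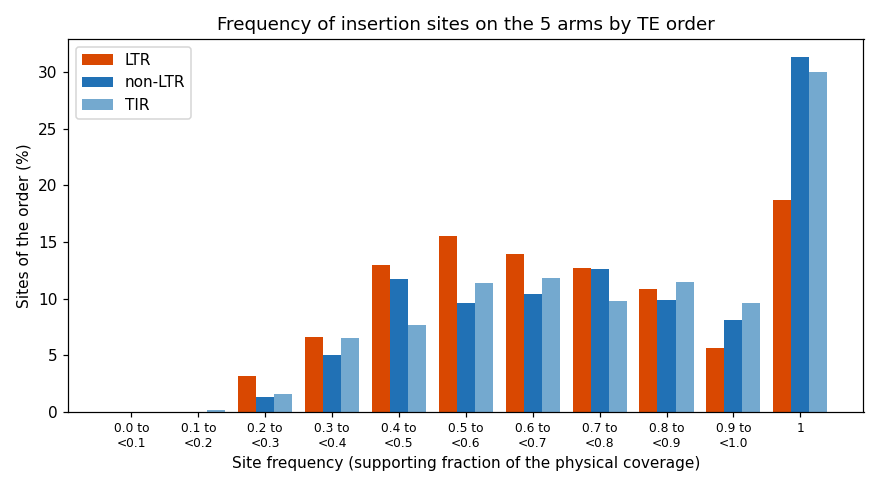
Share of the sites of each order (vertical axis, percent) in steps of site frequency (horizontal axis) for LTR, non-LTR and TIR elements on the 5 arms, with sites at exactly 1 in the last group. That group holds 18.7% of LTR, 31.4% of non-LTR and 30.0% of TIR sites.

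The share at a frequency of 1 moved with the coverage of the site. It was 64.0% of the 86 LTR sites with a total coverage under 3, 28.9% from 3 to 4, 14.9% from 4 to 5, 9.76% from 5 to 6 and 6.05% of the 215 sites over 6. The orders also differed in coverage, with medians of 4.89 for LTR, 4.48 for non-LTR and 4.28 for TIR sites. Among sites with a total of at least 5, a limit added after the data were seen, 420 LTR sites were left with a median frequency of 0.556, and 166 of them (39.5%) were under 0.5. There the share at 1 was 7.86% of LTR sites against 15.3% of 249 non-LTR sites (difference -7.40 points, -12.9 to -2.47) and 15.1% of 278 TIR sites (difference -7.25 points, -12.4 to -2.48).

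**Figure D3:**
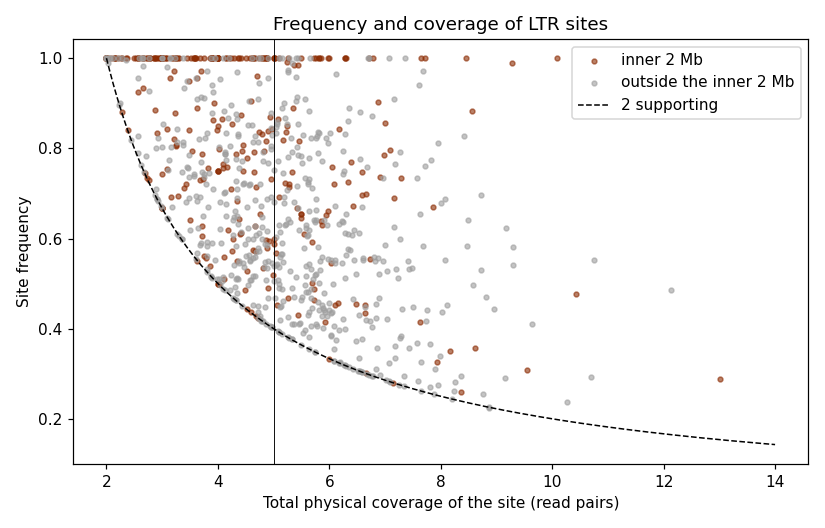
Frequency (vertical axis) against total physical coverage in read pairs (horizontal axis) of LTR sites, in the 2 Mb of each arm nearest the centromere and outside them, with 1 site at a coverage of 64.3 left out. The dashed line is the frequency that 2 supporting read pairs give at each coverage, and no site lies below it; the vertical line marks a coverage of 5.

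The frequency of a site depended on where on the arm it lay. The inner 2 Mb of an arm were a fixed cut, counted from the listed site nearest the centromere. The study's methods place some heterochromatin on these arms, by cytological borders that were not applied here. The cut can therefore hold both heterochromatin and euchromatin, in parts that may differ by arm. The inner 2 Mb held 305 LTR sites (34.5%), against 42.5% of non-LTR sites (difference -7.91 points, -12.8 to -3.04) and 58.9% of TIR sites. Within them, the median LTR frequency was 0.865 and 129 sites (42.3%, 36.9 to 47.9%) were at 1. Outside them, the median was 0.605 and only 36 of 578 sites (6.23%, 4.53 to 8.50%) were at 1. The 2 intervals did not overlap, nor did they at a coverage of at least 5, where 23 of 94 inner sites (24.5%, 16.9 to 34.0%) and 10 of 326 outer sites (3.07%, 1.67 to 5.55%) were at 1.

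Part of the difference between orders went with this position. Outside the inner 2 Mb, 6.23% of LTR sites were at 1 against 11.1% of non-LTR sites (difference -4.83 points, -8.72 to -1.26) and 18.4% of TIR sites (difference -12.2 points, -17.0 to -7.81). With a coverage of at least 5, the interval of the difference from non-LTR sites outside the inner 2 Mb included 0 (3.07% against 3.39%, difference -0.322 points, -4.38 to 2.76), while that from TIR sites did not (3.07% against 7.89%, difference -4.83 points, -10.4 to -0.679). Inside the inner 2 Mb the LTR share of 42.3% was below that of non-LTR sites (58.9%, difference -16.6 points, -24.3 to -8.54), and its difference from that of TIR sites (38.2%) had an interval from -2.83 to 11.1 points.

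Families fell at both ends of this range. Across the 27 families with at least 10 sites, the share of sites in the inner 2 Mb and the share at a frequency of 1 had a Pearson's r of 0.863 and a Spearman's rho of 0.847, which is given as a description, since the families share 1 library and the same gradient of coverage. Among these, 15 families, with 538 sites in all, had under 20% of their sites at 1. Of those 538 sites, 78 were in the inner 2 Mb and 30 were at 1. Another 10 families with 137 sites had 40% or more at 1, and 110 of those sites were in the inner 2 Mb and 76 at 1. The division at 20 and 40% was made after the values were seen.

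The families of low frequency included those with the most sites. roo had frequencies from 0.260 to 1 with a median of 0.615 (0.584 to 0.640), and 8 of its 204 sites were at 1. Only 21 roo sites lay in the inner 2 Mb. 412 had a median of 0.621 and a highest value of 0.959, and neither a site at 1 nor a site in the inner 2 Mb was listed among its 46 sites, which at this number allows a share of up to 7.71% for each. blood also had no site at 1 (25 sites, 0.280 to 0.956, median 0.607). The medians of mdg3 (0.589), Transpac (0.621), opus (0.623), mdg1 (0.568), copia (0.613), Burdock (0.569), flea (0.542), 3S18 (0.618) and springer (0.583) lay close to these, and the intervals of these medians overlapped that of roo. HMS-Beagle (0.750), 17.6 (0.723) and rover (0.649), also with under 20% of sites at 1, had higher medians, with intervals that overlapped that of roo as well. mdg1 stood apart in another respect, since none of its 30 sites was supported from both sides, while 25 of the 46 sites of 412 were.

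The families of high frequency were smaller and mostly close to the centromere. All 20 gypsy8 sites, all 12 aurora-element sites and all 11 diver2 sites lay in the inner 2 Mb. Their median frequencies were 0.953, 0.936 and 1, with 10, 5 and 8 sites at 1. rooA, named for its likeness to roo, had 16 of 18 sites in the inner 2 Mb, 13 sites at 1 and a median of 1, so that its interval (0.961 to 1) did not overlap that of roo. invader4 had 9 of 13 sites at 1, gypsy2 had 7 of 12, and all 5 Dm88 sites were at 1 and in the inner 2 Mb. invader3 was the exception in position, with 5 of 10 sites at 1 but only 3 in the inner 2 Mb. The median total coverage was 2.73 at diver2 sites and 3.86 at gypsy8 sites, against 5.40 at roo sites. At a coverage of at least 5, rooA had 6 of 7 sites at 1, aurora-element 3 of 5 and invader4 3 of 6, against 2 of 122 roo sites and 0 of 29 sites of 412. Max-element, with 9 of 19 sites at 1 at any coverage, had only 2 of 10 there. Its median at that coverage was 0.527, against 0.554 for roo. gypsy8, diver2, gypsy2, invader1, invader2 and invader3 had under 5 such sites and could not be compared in this way. Between the extremes, 297 had a median of 0.695 with 12 of 51 sites at 1 and 21 in the inner 2 Mb, and Quasimodo had a median of 0.819 with 6 of 23 sites at 1.

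The superfamilies, as grouped in the lists used here, differed less than their families did. Sites at a frequency of 1 made up 15.7% (12 to 20.4%) of Bel-Pao, 17.1% (8.10 to 32.7%) of Copia, 20.7% (14.8 to 28.3%) of errantivirus and 18.8% (15.3 to 22.9%) of other Gypsy sites, and all 4 intervals overlapped. Among the 28 sites not assigned, 39.3% were at 1 and 82.1% lay in the inner 2 Mb.

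The LTR share of all sites was similar on the 5 arms. It was 37.0% on X (154 of 416 sites), 34.2% on 2L (191 of 559), 35.8% on 2R (214 of 598), 36.6% on 3L (193 of 527) and 35.0% on 3R (131 of 374), with overlapping intervals. The density of LTR sites varied more, with 6.88 sites per Mb on X, 8.33 on 2L, 10.1 on 2R, 7.87 on 3L and 4.70 on 3R. This spread came mostly from the inner 2 Mb, where the density was 18.0 per Mb on X, 35.5 on 2L, 46.5 on 2R, 42.0 on 3L and 10.5 on 3R, whereas outside them it ran only from 4.25 on 3R to 6.32 on 2R. The share of LTR sites at a frequency of 1 also varied between arms. It was 25.4% (19.8 to 32.0%) on 3L and 24.8% (19.5 to 31.0%) on 2R, against 11% (7.01 to 17.0%) on X and 7.63% (4.20 to 13.5%) on 3R, with 18.8% on 2L. Outside the inner 2 Mb, each arm had 6 to 8 LTR sites at 1 and a median frequency from 0.581 on 2R to 0.648 on 3L.

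**Figure D4:**
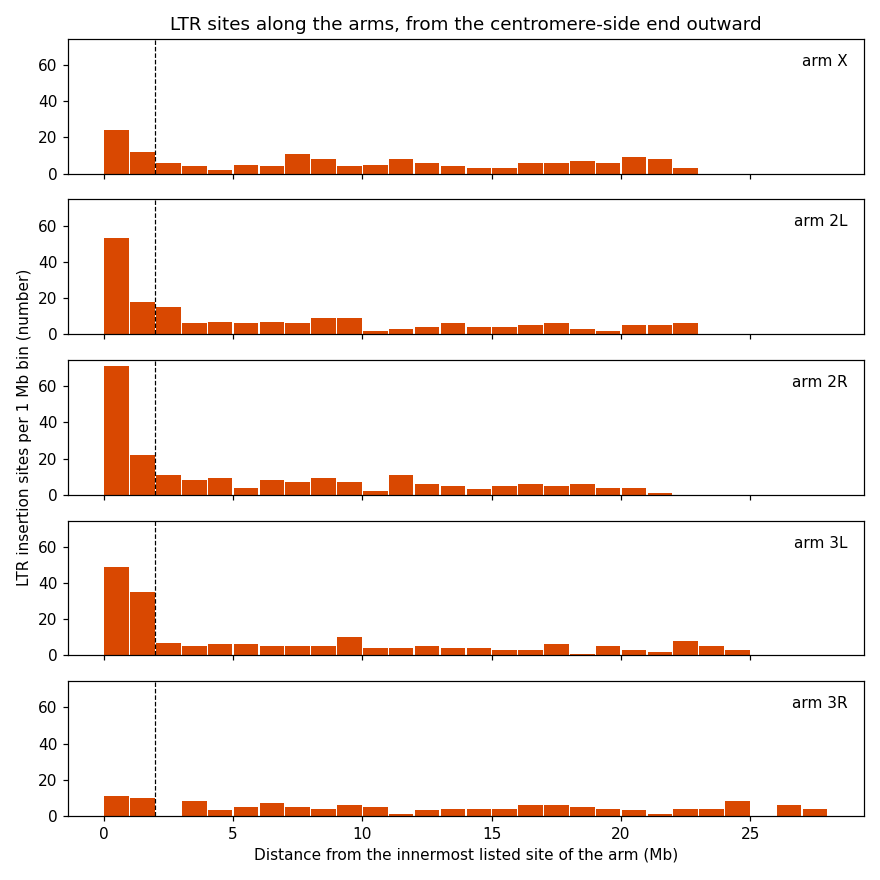
Number of LTR sites in bins of 1 Mb (vertical axis) by distance from the listed site nearest the centromere (horizontal axis, Mb), for arms X, 2L, 2R, 3L and 3R, with the dashed line at 2 Mb and the last bin of each arm covered only in part. The first bins of 2L, 2R and 3L stand far above the rest of their arms, and those of X and 3R do so less.

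In fixed windows of 1 Mb the median was 5 LTR sites, with 4 and 8 at the quartiles, and 3 of 121 windows had none. The 3 densest windows held 177 sites or 20% of the total. The first was the inner end of 2R, chr2R:1-1000000 in release 5 (dm3) of the genome, with 71 LTR sites of 32 families, of which 36 were at a frequency of 1. gypsy8 (9 sites), 297 (6) and aurora-element (5) led it, and roo, the largest family on the arm, had 1 site there. The windows chr2L:22000001-23000000 and chr3L:23000001-24000000 had 53 LTR sites each, 25 of them at 1 in both, and gypsy8 was the most frequent family in both, with 5 and 6 sites. roo had 3 and 2. Among windows with no LTR site in the inner 2 Mb, the fullest had 12 LTR sites. The window chr2L:20000001-21000000, with 1 of its sites in the inner 2 Mb, had 16.

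The distance between neighbouring LTR sites had a median of 66.9 kb (54.2 to 74.6 kb), with 17.8 and 194 kb at the quartiles and 1270 kb at most. It was 15.6 kb (12.3 to 19.8 kb) in the inner 2 Mb and 130 kb (114 to 150 kb) outside them. By arm, the median was shortest on 2R (38.7 kb) and longest on 3R (161 kb). Neighbouring non-LTR sites were 55.8 kb apart and TIR sites 17.3 kb, but outside the inner 2 Mb the medians were 184 kb for non-LTR and 173 kb for TIR sites. LTR sites thus had the longest median distance of the 3 orders over whole arms, where its interval overlapped that of non-LTR sites (42.4 to 68.7 kb), and the shortest outside the inner 2 Mb, where its interval overlapped that of TIR sites (130 to 210 kb) and not that of non-LTR sites (153 to 212 kb). Their number was also the largest of the 3 outside the inner 2 Mb (578 against 389 and 342). Neighbouring roo sites were 392 kb apart at the median.

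Some LTR sites lay very close together. A total of 161 distances (18.3%) were under 10 kb, 125 of them in the inner 2 Mb, and 28 were under 1 kb. Of those 28, 17 joined sites of the same family. The shortest was 232 bases between Max-element sites at chr2L:13567414 and chr2L:13567646, followed by 278 bases between diver2 sites at chr3L:24110854 and chr3L:24111132 and 290 bases between aurora-element sites at chr2R:808057 and chr2R:808347. In 6 of the 17 pairs the sites had the same strand and were seen from opposite sides. Within 20 kb, 59 pairs of consecutive sites of 1 family were found, in 24 families. The members of 53 of them were on the same strand, and 45 were in the inner 2 Mb. Between different families, a 297 site and a gypsy2 site on 2R were 291 bases apart, and a Transpac site and a springer site on X 334 bases.

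Positions were then compared with genes. Release 5 spans were at hand for 1962 genes on the 5 arms, listed by identifier in a supplementary table of the study of which only the first part was used here, so counts of sites near genes are minimums, and whether a site lies in an exon or an intron was not analysed here. Inside these genes lay 88 LTR sites (9.97%, 8.16 to 12.1%), in 73 genes, and 122 sites (13.8%, 11.7 to 16.2%) were inside or within 3 kb of 114 genes. Shares of non-LTR (9.47% inside, 15.4% within 3 kb) and TIR sites (9.50% and 16.1%) had overlapping intervals. Among LTR sites inside listed genes of 1 strand only, 40 of 87 were in the sense orientation (46.0%, 35.9 to 56.4%). The gene with the most sites was Snap25 (FBgn0011288), which encodes a protein of synaptic vesicle fusion and spans 225 kb near the centromere of 3L. It held 13 LTR sites of 11 families, at frequencies from 0.477 to 1, 6 of them at 1. The only other gene with 3 or more was cbx (FBgn0011241, named from the study's table), with 3 roo sites at chr2R:5755561, chr2R:5756793 and chr2R:5758811 at frequencies of 0.795, 0.757 and 0.946. A longer span takes in more sites by definition, so genes near LTR sites were long, as were those near non-LTR sites (median span 23.7 kb) and, less so, TIR sites (8.08 kb). The median span was 16.8 kb in the 114 genes and 3.48 kb in the 1848 without an LTR site within 3 kb.

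The RNA of these genes was examined next. The libraries had 10773406 to 12802084 estimated counts, and edgeR tested 9346 genes over all 8 of them, with p-values adjusted over these genes and a call at an adjusted p under 0.05. The file names of the single knockdowns give the opposite genotype from their labels, and the mRNA of the targets goes against the labels as well. TPM of piwi was 158 and 147 in double-GKD, 259 and 229 in the Piwi-GKD-labelled libraries, 129 and 134 in the HP1a-GKD-labelled ones, and 318 and 276 in Ctrl. TPM of Su(var)205, the gene of HP1a, was 161 and 172 in double-GKD, 166 and 189 in the Piwi-GKD-labelled ones, 342 and 358 in the HP1a-GKD-labelled ones, and 327 and 328 in Ctrl. Su(var)205 had a log2 fold change of -1.27 ± 0.15 against Ctrl in the Piwi-GKD-labelled libraries (edgeR adjusted p = 0.00029). It was not called in the HP1a-GKD-labelled ones. piwi had -0.68 ± 0.08 and -1.23 ± 0.08 in the same order (edgeR adjusted p = 0.00023 and 0.00065). A label of a single knockdown is therefore not taken here as its genotype. The 2 single knockdowns are called the libraries labelled Piwi-GKD or HP1a-GKD (Piwi-GKD-labelled, HP1a-GKD-labelled) throughout. Marker RNA also differed between groups. The summed TPM of germline markers (osk, otu and aub, 3 of 5 listed, the other 2 not matched by symbol) was 242 in both double-GKD libraries, 250 and 233 in the Piwi-GKD-labelled ones, 1070 and 1050 in the HP1a-GKD-labelled ones and 1250 and 1260 in Ctrl. That of muscle markers (5 of 6 matched) was 8290 and 6740 in double-GKD, 9150 and 7040 in the Piwi-GKD-labelled ones, 2380 and 2620 in the HP1a-GKD-labelled ones and 2220 and 2060 in Ctrl. None of the matched markers was at 0 in Ctrl. That of 5 markers of follicle and other somatic ovary cells was 526 and 347 in double-GKD, 449 and 232 in the Piwi-GKD-labelled ones, 231 and 114 in the HP1a-GKD-labelled ones and 199 and 91.7 in Ctrl, and 1 of these 5, Fas3, also lies near an LTR site. Fas3 was the only 1 of the 5 called, as a rise, in double-GKD and in the Piwi-GKD-labelled libraries. The median log2 fold changes of the 5 were 0.36 and 0.10 there. In whole ovaries, fewer germ cells and less RNA per germ cell cannot be told apart.

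Of the 114 genes within 3 kb of an LTR site, 108 passed the filter on low counts. In double-GKD against Ctrl, 52 of them rose and 17 fell, 48.1% and 15.7% of those tested, against 28.1% of all tested genes up and 28.1% down. Their median log2 fold change was 0.41, against 0.00 over all genes tested. In the Piwi-GKD-labelled libraries, 54 rose (50%, all genes 29.3%) and 19 fell (17.6%, all genes 29.1%), with a median of 0.53. In the HP1a-GKD-labelled ones, 4 rose (3.70%, all genes 0.877%) and 1 fell (0.926%, all genes 0.492%), with a median of 0.09. The 3 contrasts share the 2 Ctrl libraries and are not independent. The calls of the 4 rises and the fall were lost when single libraries were left out. The counts were 1 and 0 without Ctrl replicate 1 or 2, 0 and 0 without replicate 1 or 2 of the HP1a-GKD-labelled libraries, and 3 to 5 and 1 without a library of another knockdown.

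Gene length moved with these counts. Among genes spanning 10 kb or more, 37 of 72 near an LTR site rose in double-GKD (51.4%), against 177 of 373 without one (47.5%), and in the Piwi-GKD-labelled libraries 36 of 72 (50%) against 184 of 373 (49.3%). Among genes under 10 kb, 15 of 36 near an LTR site rose in double-GKD (41.7%) against 291 of 1322 (22.0%), and 18 of 36 (50%) against 284 of 1322 (21.5%) in the Piwi-GKD-labelled ones. Genes near the other orders were split in double-GKD and in the Piwi-GKD-labelled libraries. Near non-LTR sites, where the median span was 23.7 kb, 36 of 82 rose in double-GKD (43.9%), and near TIR sites, where it was 8.08 kb, 23 of 94 did (24.5%). The shares in the Piwi-GKD-labelled libraries were 42.7% and 27.7%. In the HP1a-GKD-labelled ones, 3 of 82 rose near non-LTR sites (3.66%) and 3 of 94 near TIR sites (3.19%). Of genes with no TE site within 3 kb, 0.512% rose there, so the higher share was not particular to LTR sites. The germline and muscle marker levels given above moved in the same contrasts (3 of 3 germline markers fell and 5 of 5 muscle markers rose in double-GKD and in the Piwi-GKD-labelled libraries, and none passed the test in the HP1a-GKD-labelled ones), and their part in the counts was not tested. Among the families, 36 genes lay within 3 kb of a roo site, of which 20 rose (55.6%) and 4 fell (11.1%) in double-GKD, against 28.1% of all tested genes in each direction, with a median log2 fold change of 0.50. Of the 6 genes near copia sites 4 rose (66.7%) and 2 fell (33.3%), and of the 6 near blood sites 2 rose (33.3%) and 3 fell (50%), numbers too small to set against the share of all genes. At a distance of 10 kb, 76 of 207 tested genes rose (36.7%) and 50 fell (24.2%) in double-GKD, and 76 rose (36.7%) and 56 fell (27.1%) in the Piwi-GKD-labelled libraries, so that both shares lay closer to those of all genes than within 3 kb. The 207 genes include those within 3 kb, and an effect of distance apart from gene length was not tested. The list of sites is that of the double-GKD genotype. Ctrl females had balancers in place of both RNAi chromosomes and need not carry the sites of those chromosomes, and the chromosome of a pair on which a site lay is not given.

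Among the 108 tested genes with a listed span, the 5 largest called rises in double-GKD were in genes that hold an LTR site. 5-HT7, a serotonin receptor gene with a 412 site in the same orientation (chr3R:26833794, frequency 0.883, seen from both sides), had a TPM of 6.34 and 5.43 in double-GKD, 5.84 and 5.28 in the Piwi-GKD-labelled libraries, 0.714 and 0.742 in the HP1a-GKD-labelled ones, and 0.511 and 0.520 in Ctrl. All 4 libraries of these groups were above both of Ctrl, and the log2 fold changes were 3.17 ± 0.16 and 3.01 ± 0.16 (SE, edgeR adjusted p = 1.8e-05 and 1.5e-05). Oamb, an octopamine receptor gene with a blood site (frequency 0.733), had 11.7 and 8.61 in double-GKD, 10.3 and 9.59 in the Piwi-GKD-labelled libraries, 3.59 and 4.12 in the HP1a-GKD-labelled ones, and 1.87 and 1.85 in Ctrl. It rose by 2.11 ± 0.16 in double-GKD (edgeR adjusted p = 4.5e-05) and by 0.99 ± 0.16 in the HP1a-GKD-labelled libraries (edgeR adjusted p = 0.033).

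Drip, an aquaporin gene with an opus site (frequency 0.546), had a TPM of 170 and 157 in double-GKD, 169 and 146 in the Piwi-GKD-labelled libraries, 47.2 and 49.8 in the HP1a-GKD-labelled ones, and 29.4 and 30.1 in Ctrl, with a log2 fold change of 2.12 ± 0.09 in double-GKD (edgeR adjusted p = 1.3e-05). Fas3, which encodes an adhesion protein of follicle cells and holds a blood site (frequency 0.402), had 233 and 201 in double-GKD and 41.3 and 34.1 in Ctrl (2.19 ± 0.12, edgeR adjusted p = 2.1e-05). CG3777, with a flea site (frequency 0.325), had 5.87 and 5.43 in double-GKD and 1.14 and 0.847 in Ctrl (2.20 ± 0.15, edgeR adjusted p = 3.6e-05). Cyp6a2, a cytochrome P450 gene with a 17.6 site seen from both sides (frequency 0.661), had 37.3 and 39.8 in the HP1a-GKD-labelled libraries and 24 and 20 in Ctrl. It rose there by 0.76 ± 0.08 (edgeR adjusted p = 0.0053), and by 2.08 ± 0.08 in double-GKD (edgeR adjusted p = 8.1e-06). Of the 108 genes, the 4 that rose in the HP1a-GKD-labelled libraries were CG3777 (1.08 ± 0.15, edgeR adjusted p = 0.023), Oamb, Cyp6a2 and Drip (0.65 ± 0.09, edgeR adjusted p = 0.021). In the fits without 1 library in which these calls were lost, the log2 fold changes ran from 0.96 to 1.21 for CG3777, 0.93 to 1.06 for Oamb, 0.72 to 0.79 for Cyp6a2 and 0.54 to 0.67 for Drip.

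**Figure D5:**
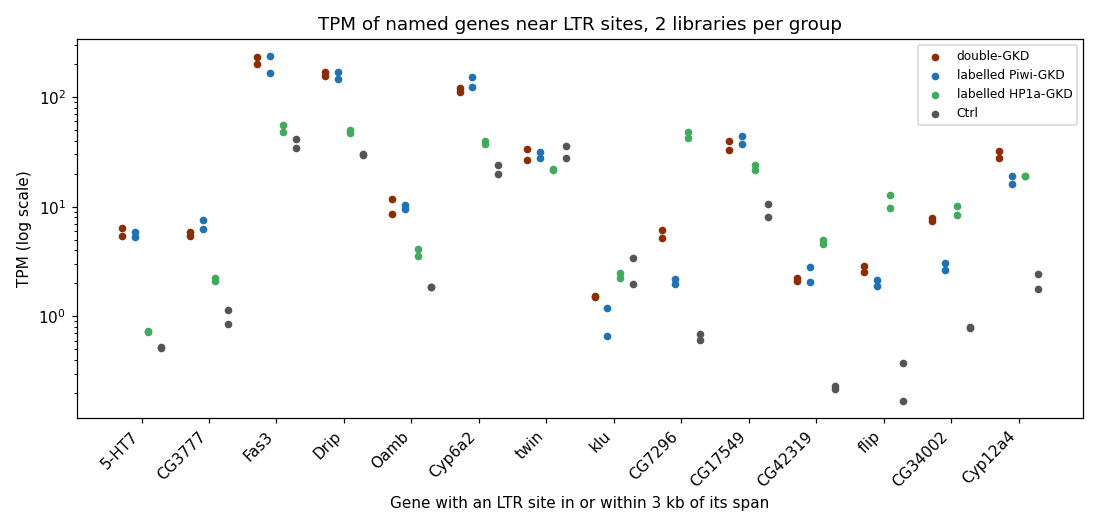
TPM on a log scale (vertical axis) of 14 genes with an LTR site inside or within 3 kb, with 1 point per library for double-GKD, the Piwi-GKD-labelled libraries, the HP1a-GKD-labelled ones and Ctrl. The first 6 genes are highest in double-GKD and in the Piwi-GKD-labelled libraries, and CG7296 and flip are highest in the HP1a-GKD-labelled ones.

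In the Piwi-GKD-labelled libraries, the 5 largest called rises among these genes also took in Gsc, MtnB and hth. hth, a homeodomain gene with a roo site (frequency 0.468), had a TPM of 8.44 and 6.39 in these libraries and 1.02 and 1.19 in Ctrl (2.33 ± 0.23, edgeR adjusted p = 0.00014). Gsc, a homeobox gene with a gypsy site, had 55 counts in the Piwi-GKD-labelled libraries and 7 in Ctrl (2.81 ± 0.55, edgeR adjusted p = 0.0036). MtnB, a metallothionein gene 532 bases from a Transpac site, had 35 and 6 counts (2.38 ± 0.58, edgeR adjusted p = 0.013). The call of MtnB ended without Ctrl replicate 2 or replicate 2 of the Piwi-GKD-labelled libraries (log2 fold changes of 1.97 and 2.20, edgeR adjusted p = 0.078 and 0.080), and with DESeq2 (2.42, adjusted p = 0.078).

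Falls among the same genes were smaller. fw, 723 bases from an mdg3 site at a frequency of 1, had a TPM of 0.246 and 0.171 in double-GKD and 0.556 and 0.788 in Ctrl (-2.03 ± 0.33, edgeR adjusted p = 0.0017), which rests on 10 to 50 counts a library. klu, a zinc finger gene with a blood site inside (frequency 0.827), had 1.51 and 1.54 in double-GKD, 1.19 and 0.661 in the Piwi-GKD-labelled libraries, and 3.38 and 1.98 in Ctrl (-1.15 ± 0.25 and -1.86 ± 0.26, edgeR adjusted p = 0.0065 and 0.00072). CG11596, 107 bases from an opus site, and Polr3B, which encodes a subunit of RNA polymerase III and lies 2574 bases from a copia site, fell by 1.02 and 1.01 on the log2 scale in double-GKD (SE 0.08 and 0.09, edgeR adjusted p = 4.2e-05 and 9.9e-05). Appl, the amyloid precursor protein gene of the fly with a 412 site, fell by 0.87 (SE 0.23, edgeR adjusted p = 0.014), and this call ended without Ctrl replicate 1 or double-GKD replicate 1 (-0.67 and -0.69, edgeR adjusted p = 0.077 and 0.090) and with DESeq2 (-0.87, adjusted p = 0.061). w, which holds a roo site (frequency 0.292, seen from both sides), had 54.0 and 39.7 in the Piwi-GKD-labelled libraries and 73.4 and 63.0 in Ctrl (-0.95 ± 0.14, edgeR adjusted p = 0.00091), but its reads cannot be told apart from those of the w[+mC] marker of the transgenes. twin, a deadenylase gene with a flea site at a frequency of 1, was the gene of the 108 that fell in the HP1a-GKD-labelled libraries, at 21.7 and 22.0 against 35.8 and 28.0 in Ctrl (-0.61 ± 0.09, edgeR adjusted p = 0.023), and had log2 fold changes from -0.67 to -0.54 in the fits without 1 library in which its call was lost. Neither gene with 3 or more sites passed the test in any contrast, although Snap25 did in the Piwi-GKD-labelled libraries without Ctrl replicate 1 (-1.54, edgeR adjusted p = 0.033). Snap25 had 0.873 and 1.49 in double-GKD and 0.534 and 1.30 in Ctrl, and cbx had 28.3 and 28.9 in double-GKD and 21.7 and 23.9 in Ctrl.

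The study itself picked 14 genes for their rise in both single knockdowns and for a TE within 10 kb. In 10 of them an LTR site was listed within 10 kb and in 9 within 3 kb. Because they were chosen on these libraries, their levels are a description, and they are not among the 114 genes counted above. The nearest LTR families were 412 (CG7296 and Cyp12a4), copia (CG17549 and CG42319), invader4 (CG34002 and, at 3915 bases, CG9380), 3S18 (CG13168), mdg3 (CG34430), Burdock (flip, also called CG9766) and Idefix (CG9616). Sites of other orders near these genes were left aside. For CG9380 the study lists a TE in an intron, and not invader4. CG7296, 841 bases from a 412 site at chr2L:10685550 (frequency 0.855, seen from both sides), had a TPM of 5.14 and 6.12 in double-GKD, 2.20 and 1.98 in the Piwi-GKD-labelled libraries, 47.7 and 42.6 in the HP1a-GKD-labelled ones, and 0.688 and 0.604 in Ctrl. With 6 Ctrl counts in all, the ratio was 8.18 in double-GKD (exact 95% interval 3.48 to 23.4, counting error only) and 68.5 in the HP1a-GKD-labelled libraries (31.2 to 188). flip, with a Burdock site inside it at a frequency of 1 and a coverage of 2.26, had 2.91 and 2.56 in double-GKD, 2.13 and 1.88 in the Piwi-GKD-labelled ones, 12.9 and 9.72 in the HP1a-GKD-labelled ones, and 0.170 and 0.375 in Ctrl.

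Cyp12a4, another cytochrome P450 gene, lay between 2 LTR sites, 442 bases from a 412 site (chr3R:14960443, frequency 0.678) and 2358 bases from a springer site (chr3R:14965216, frequency 0.684). Its TPM was 32.6 and 28.0 in double-GKD, 19.1 and 16.1 in the Piwi-GKD-labelled libraries, 18.9 and 18.9 in the HP1a-GKD-labelled ones, and 2.45 and 1.77 in Ctrl. CG17549, with a copia site inside it (frequency 0.700), had 40.2 and 32.7 in double-GKD, 44.4 and 37.6 in the Piwi-GKD-labelled ones, 21.8 and 23.9 in the HP1a-GKD-labelled ones, and 10.6 and 8.0 in Ctrl. CG42319, 1272 bases from the other copia site (frequency 0.295), had 2.24 and 2.09 in double-GKD, 2.85 and 2.08 in the Piwi-GKD-labelled ones, 4.62 and 4.99 in the HP1a-GKD-labelled ones, and 0.218 and 0.234 in Ctrl. CG34430 and CG9616 had no counts in Ctrl. CG34430, 196 bases from an mdg3 site (frequency 0.867), was at least 4.27-fold higher in double-GKD and at least 7.28-fold higher in the HP1a-GKD-labelled libraries, against a floor of 3 counts per Ctrl library. CG9616, 422 bases from an Idefix site at a frequency of 1, was at least 3.73-fold higher in double-GKD and at least 6.31-fold higher in the Piwi-GKD-labelled libraries. CG34430 had 2 counts in each Piwi-GKD-labelled library, under the floor, and is given no fold there. In the other 9 genes, both libraries of every knockdown were above both Ctrl libraries. The LTR sites near the 10 genes ranged in frequency from 0.295 to 1, and only that of CG7296 was seen from both sides.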

How the data were processed

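Double-GKD genomic DNA (1 library) and ovarian RNA (8 libraries, 2 per group) were measured. For DNA, the authors ran PoPoolationTE2 on paired reads, and the deposited list gives each site's frequency as a fraction and its supporting and total coverage, on release 5 (dm3). For RNA, per the study's methods, STAR alignments to the same release were passed to Salmon. Its estimated counts were deposited without normalization, beside deposited TPM, which are scaled within a library. Tool versions, and whether strand was used in counting, are not given in the sources used here. After rounding, counts entered edgeR 4.0.16 under R 4.3.3 (glmQLFit, TMM, filterByExpr, 4 groups, no covariate). Ratios of mean TPM (log2, pseudocount 0.1) had a median over tested genes of 0.32 in double-GKD, 0.39 in the Piwi-GKD-labelled and 0.05 in the HP1a-GKD-labelled libraries, against 0.00 in edgeR, so fold changes are relative to that scaling. Sites were summarised in Python 3.11.15 with pandas 2.3.3, intervals came from scipy 1.17.1, and plots were drawn with matplotlib 3.10.9. DESeq2 1.42.0 served as an alternative. The 2 libraries of a group are biological replicates per the labels.

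Members, family lists and genes were chosen with earlier results of these data known. Named genes were both targets, genes holding 3 or more LTR sites, and, per contrast, up to 5 rises and 5 falls of largest log2 fold change among called genes with a listed span within 3 kb whose knockdown libraries lay on 1 side of both Ctrl libraries. The 14 genes of the study and marker lists were added. Gene spans came from the study's supplementary tables. Intervals and floors cover counting error only. Alternatives were other tools and scalings, each library left out, exchanged labels, other distances and stricter site sets.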

Additional observations from a re-analysis of the deposited data

Results flagged for a closer look

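The list also held 539 LTR sites outside the 5 arms, on chromosome 4, U, Uextra and the heterochromatic sequences, which none of the comparisons above used. Of all 1422 LTR sites, 62.1% lay on the arms. Stalker3 and invader6 were listed only off the arms, diver2 had 11 sites on the arms against 26 off them, and Max-element had 19 against 25, while copia had 26 against 0 and roo 204 against 14.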

How the results depend on the processing

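Leaving out the 2 Mb nearest the centromere turned the order of spacing, as LTR sites had the longest median distance of the 3 orders over whole arms and the shortest outside them. Among the named genes, no called log2 fold change changed sign in the other fits. Signs of the other genes were not compared between fits. With sites supported from both sides only, 280 LTR sites were left, 39.2% of all sites (45.5% on X, 41.7% on 3R), with a median frequency of 0.724, 10.4% at 1, a median spacing of 221 kb and 29.6% in roo. With a total coverage of at least 5, chosen after seeing the data, 420 were left, or 42.5% (X 46.0%, 2L 38.4%, 2R 41.4%, 3L 46.1%, 3R 41.1%), with a median frequency of 0.556, 7.86% at 1, 166 kb and 29.0% in roo. Without the 2 Mb nearest the centromere, 578 were left, or 42.1% (2L 43.0%, 2R 42.8%, 3L 44.9%), with 0.605, 6.23% at 1, 130 kb, 31.7% in roo and 17.0% within 3 kb of genes. At a frequency of at least 0.5, the median was 0.774, 24.2% were at 1 and 35.8% were seen from both sides. Within 10 kb, 23.0% of sites were near genes, and 9.97% were inside them. Removing frequencies under 0.1 removed no site.

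For genes near LTR sites, rises in double-GKD and in the Piwi-GKD-labelled libraries numbered 18 and 18 of 33 tested (54.5% in both) with sites seen from both sides. At a frequency of at least 0.5, rises in double-GKD numbered 33 of 76 tested (43.4%). Of all tested genes, 28.1% rose in double-GKD and 29.3% in the Piwi-GKD-labelled libraries. Within 10 kb, rises numbered 76 and 76 and falls 50 and 56 of 207 tested. Falls numbered 9 and 10 of 72 tested (12.5% and 13.9%) inside genes only. With sites seen from both sides they numbered 2 and 4 of 33 (6.06% and 12.1%), against 28.1% and 29.1% of all tested genes. Leaving out 1 library gave 39 to 51 rises and 16 to 19 falls in double-GKD, 45 to 53 and 17 to 21 in the Piwi-GKD-labelled libraries, and 0 to 5 and 0 to 1 in the HP1a-GKD-labelled ones. There, rises were 7 and falls 2 with DESeq2, falls 2 with RLE factors and rises 1 with only these libraries and Ctrl. With sites seen from both sides, rises were 2 of 33 tested (6.06%) and falls 0. Within 10 kb, falls were 2 of 207 tested (0.966%). Of all tested genes, 0.877% rose and 0.492% fell in the HP1a-GKD-labelled libraries. With labels exchanged, the libraries now named Piwi-GKD had 4 rises and 1 fall, and those named HP1a-GKD 54 and 19. With the replicate number as a replicate block, rises were 56, 57 and 5 and falls 19, 21 and 2 in double-GKD, the Piwi-GKD-labelled and the HP1a-GKD-labelled libraries. Deviations of libraries with the same number correlated by 0.106 on average (-0.0434 to 0.232), and with 2 replicates they share only a number.

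Limits are the single DNA library, a coverage at which rare insertions could not enter the list, the partial list of gene spans, and 2 RNA libraries per group.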
